A study of Homo sapiens with 6 samples.

Results

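Genes of the extracellular matrix and of the proteases that cut it were followed in A549, a cell line from a human lung adenocarcinoma. The set holds 49 genes, chosen by name from the 58302 genes listed in the deposited table: collagens, laminin chains, proteoglycans, matricellular proteins, fibrillins, lysyl oxidases, matrix proteases and their tissue inhibitors. All 49 names were found. RNA was sequenced from 3 libraries of cells given DMSO, the solvent, and 3 libraries of cells given 1.0 µM S541 for 48 h. S541 is also called compound 5n and, per the series title, is built on a 9-(pyrimidin-2-yl)-9H-carbazole scaffold and was studied for effects on mitochondria. Both groups are the same cell line with no genetic change named in the labels. The design text calls the profiles retinal, whereas each sample label names A549. Whether replicates came from separate cultures is not in the labels, so each p-value reflects the library-to-library spread, which could be technical.

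The basement membrane is the thin sheet of matrix on which epithelial cells sit. It is built from a network of type IV collagen, whose triple helices are assembled from 3 alpha chains, and a network of laminins, each made of an alpha, a beta and a gamma chain, tied together by proteoglycans such as perlecan and agrin. Matricellular proteins such as thrombospondin 1 bind matrix, growth factors and cell receptors without being structural, lysyl oxidases cross-link collagen and elastin, and matrix metalloproteinases cut matrix proteins and are held in check by TIMPs. In bulk RNA, fewer cells of a type and less RNA per cell cannot be told apart.

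Promoter sequence is shown for genes on which the results turn. COL4A1 and COL4A2 encode the 2 chains of the common type IV collagen helix and lie head to head on chromosome 13. The first line gives the stretch between their RefSeq starts, 126 bases long, on the plus strand, chr13:110307158-110307283. The other lines give the 250 bases before the start of THBS1 at chr15:39580829-39581078, SDC4 at chr20:45348425-45348674, LAMB1 at chr7:108003162-108003411 and LAMB2 at chr3:49133051-49133300, each on the strand of the gene. THBS1 and SDC4 are shown because they rose in every fit described below, and LAMB1 and LAMB2 because these 2 laminin beta chains moved in opposite directions. Sequences are from RefSeq, build GRCh38.p14, 5′ to 3′. Capitals mark GC boxes, the Sp1-type motif GGGCGG on either strand, and in THBS1 also 1 match to GGAATG, the core of the TEAD motif. The LAMB1 stretch holds a pair of overlapping GC boxes.
COL4A1/COL4A2: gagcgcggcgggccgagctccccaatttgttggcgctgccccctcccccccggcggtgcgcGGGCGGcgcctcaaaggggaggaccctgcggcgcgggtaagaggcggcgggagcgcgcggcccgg
THBS1: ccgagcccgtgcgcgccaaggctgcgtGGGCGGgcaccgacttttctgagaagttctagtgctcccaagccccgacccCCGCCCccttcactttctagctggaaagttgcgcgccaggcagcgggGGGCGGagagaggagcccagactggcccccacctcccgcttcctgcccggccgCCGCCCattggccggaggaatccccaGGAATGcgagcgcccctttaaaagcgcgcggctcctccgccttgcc
SDC4: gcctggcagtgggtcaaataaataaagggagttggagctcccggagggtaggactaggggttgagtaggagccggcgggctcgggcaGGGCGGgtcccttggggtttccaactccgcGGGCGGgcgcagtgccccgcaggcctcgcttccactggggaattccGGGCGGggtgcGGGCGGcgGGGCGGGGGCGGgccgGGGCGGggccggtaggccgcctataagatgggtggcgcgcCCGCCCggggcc
LAMB1: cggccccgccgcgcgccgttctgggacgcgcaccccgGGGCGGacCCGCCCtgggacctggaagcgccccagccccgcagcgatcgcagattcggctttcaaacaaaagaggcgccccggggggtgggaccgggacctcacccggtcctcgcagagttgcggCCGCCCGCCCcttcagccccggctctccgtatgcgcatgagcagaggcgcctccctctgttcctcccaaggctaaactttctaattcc
LAMB2: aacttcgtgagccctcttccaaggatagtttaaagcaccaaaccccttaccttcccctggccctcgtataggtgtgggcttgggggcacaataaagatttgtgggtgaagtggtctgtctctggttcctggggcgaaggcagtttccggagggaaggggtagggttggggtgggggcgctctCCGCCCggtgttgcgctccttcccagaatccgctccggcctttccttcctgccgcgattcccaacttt

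The SDC4 stretch held 8 GC boxes, those of THBS1 and LAMB1 4 each, and those of LAMB2 and of the collagen pair 1 each. RefSeq promoters were matched for 36 of the 49 genes, giving 43 windows of 250 bases. GC boxes were present in 32 of these 43 windows (74.4%), in 63.3% of 15172 windows of tested genes and in 42.6% of all 35116 promoter windows. TEAD matches were present in 5 of the 43 windows (11.6%), in 10.0% of windows of tested genes and in 11.9% of all windows. The AP-1 motif TGANTCA, also read on both strands, was present in 3 of the 43 windows (6.98%), in 4.55% of windows of tested genes and in 6.57% of all windows. All of these matches are descriptions of letters in the window.

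Library totals ranged from 13956648 to 17044139 counts, and the matrix genes took 0.723% to 0.805% of the counts of a library. The first principal component (40.4% of the variance) separated the groups, while the second (22.0%) set DMSO replicate 2 and S541 replicate 3 apart from the other 4 libraries. The epithelial keratin genes KRT8 and KRT18 were detected at 609 to 1871 CPM (counts scaled to the library total). KRT19, another keratin, rested on few reads, with 2, 8 and 7 counts in DMSO and 11, 25 and 18 in S541. It was at 0.135 to 1.565 CPM. EPCAM was at 8.10 to 11.7 CPM and CDH1 at 0.491 to 1.15 CPM. The 7 A549 markers, all detected, summed to 3071 to 3395 CPM in DMSO and 2240 to 2630 CPM in S541. In this list KRT8 and KRT18 fell, by 0.50 and 0.63 on the log2 scale (adjusted p = 0.0124 and 0.0075), and the other 5 did not pass, with log2 fold changes of 1.71 for KRT19, 0.37 for CDH2, 0.22 for EPCAM, 0.04 for VIM and -0.92 for CDH1. Fibroblast markers, 8 of 9 detected, summed to 6.65 to 9.36 CPM in DMSO and 4.63 to 5.19 CPM in S541, mostly PDGFRB. PDGFRB fell by 0.96 on the log2 scale (adjusted p = 0.049), COL3A1 did not pass, and the other fibroblast markers were not tested. COL1A2, LUM, POSTN, PDGFRA and THY1 were at 0 in every DMSO library and had at most 3 counts in an S541 library. Endothelial markers, 4 of 5 detected with KDR at 0, summed to 11.3 to 11.5 CPM and 8.13 to 13.8 CPM, and leukocyte markers, 3 of 5 detected with CD3E and AIF1 at 0, to 2.16 to 3.06 CPM and 2.00 to 2.52 CPM. The part of these marker differences in the results below was not tested.

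S541-treated cells had more RNA of the ubiquitous type IV collagen chains, laminin beta 1, syndecan 4, thrombospondin 1, TGFBI and COL6A2, and less of laminin beta 2 and perlecan. Of the 49 genes, 46 had at least 1 count, 41 passed the filter on low counts and were tested, and 8 were not tested. Among the 41 tested, 7 rose, 2 fell and 32 did not pass an adjusted p of 0.05 (edgeR quasi-likelihood test, Benjamini-Hochberg adjustment over all genes tested). Those 9 are 22.0% of the matrix genes tested, beside 8.19% of all 15847 tested genes called in either direction, 4.02% higher and 4.17% lower. The 3 S541 libraries lay outside the range of the 3 DMSO libraries for 18 of the 41, with 11 higher and 7 lower, beside 31.1% of all tested genes, 15.9% higher and 15.2% lower. The median log2 fold change was 0.06 over the 41 and -0.00193 over all tested genes. At an unadjusted p under 0.05, 16 of the 41 passed, beside 24.8% of all tested genes. The filter itself favours a gene that is high in 1 group, and the 49 genes were chosen with earlier results of these data known. These shares are therefore a description. Without DMSO replicate 2 and S541 replicate 3, the libraries apart on the second component, 6 matrix genes rose and 2 fell. Of the 9 calls, only 3, those of COL4A1, SDC4 and THBS1, held when each library was left out in turn. Summed over all 49 genes, matrix RNA was 7399 ± 162 CPM in DMSO and 7632 ± 437 CPM in S541 (SD, n = 3), and the ranges overlapped.

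**Figure D1:**
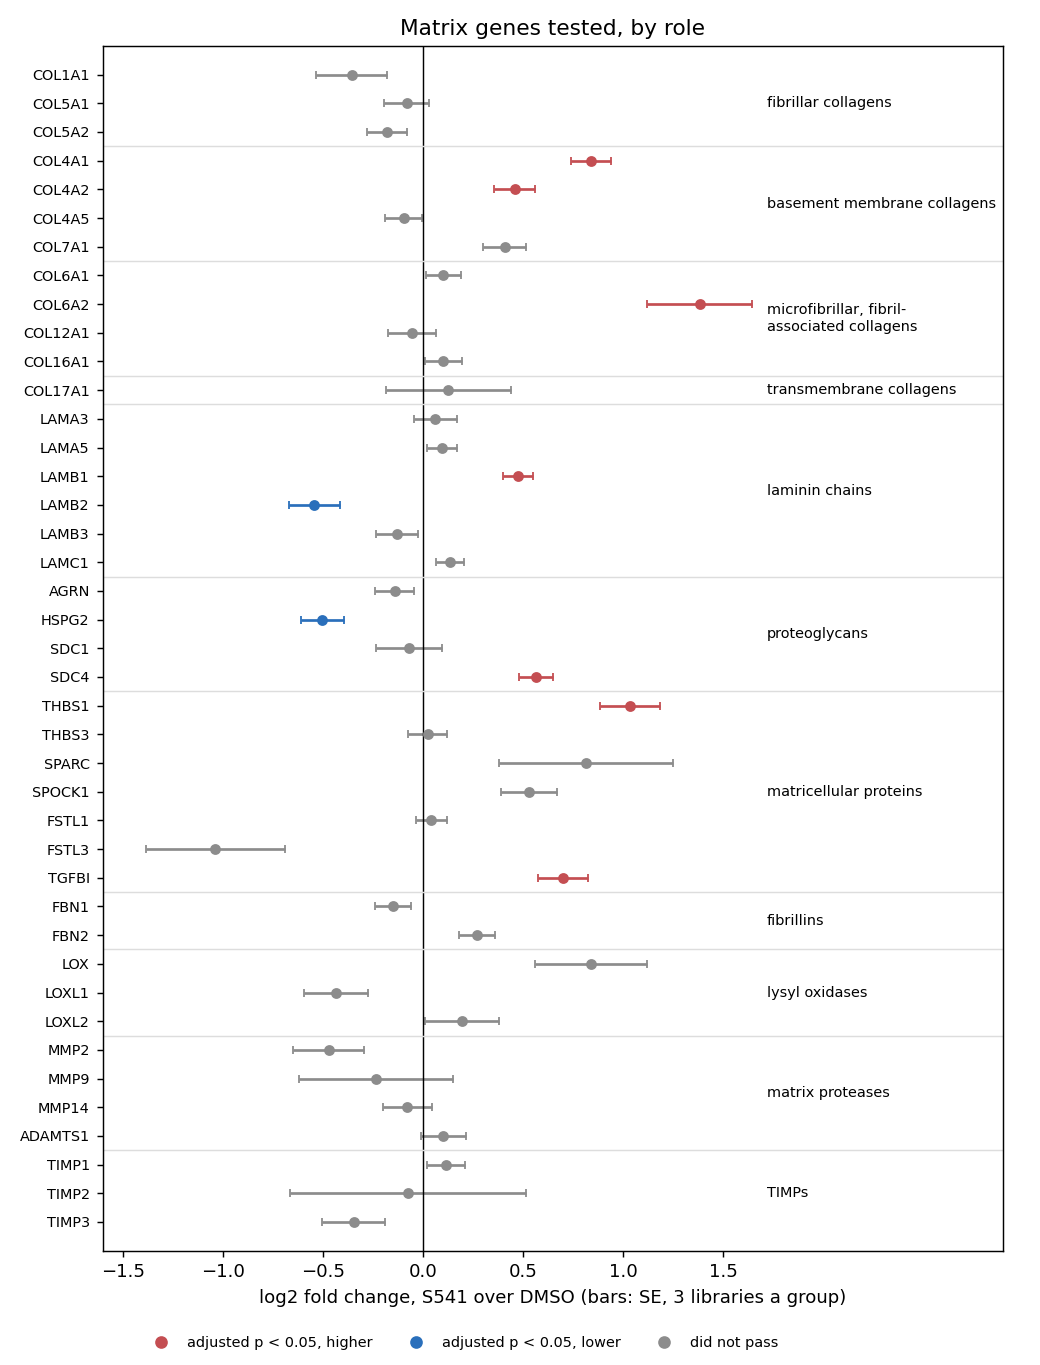
Log2 fold change of S541 over DMSO (x axis) for the 41 tested matrix genes, grouped by role, with bars giving the standard error over 3 libraries a group. The 7 genes that rose are in red, the 2 that fell in blue, and the other 32 in grey lie on both sides of 0.

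Of the 4 basement membrane collagens, 2 rose and 2 did not pass. COL4A1 (hg38, chromosome 13, 110148963 to 110307149) was at 78.4, 96.6 and 89.1 CPM in DMSO and at 155, 151 and 167 CPM in S541. Every treated library lay far above every control library, and COL4A1 rose from 88.0 ± 9.16 to 158 ± 8.10 CPM (SD, n = 3), which is 0.84 on the log2 scale (SE 0.0998, adjusted p = 0.00514). COL4A2 (chromosome 13, 110305812 to 110513027), its helix partner, was at 275, 346 and 301 CPM in DMSO and at 416, 400 and 452 CPM in S541. These groups did not overlap either, and COL4A2 rose by 0.46 on the log2 scale (SE 0.103, adjusted p = 0.036). The call on COL4A2 was lost without DMSO replicate 1 or 3 or without S541 replicate 1, 2 or 3, each left out alone (adjusted p = 0.0867 to 0.118), while COL4A1 passed in every fit. COL7A1, which forms the anchoring fibrils under the basement membrane, was at 448, 387 and 450 CPM in DMSO and at 618, 502 and 585 CPM in S541. Its groups did not overlap, and its log2 fold change of 0.41 (SE 0.105) narrowly missed the threshold (adjusted p = 0.0544), whereas DESeq2's Wald test gave an adjusted p of 0.0188. COL4A5, whose chain forms other type IV helices, had a log2 fold change of -0.10 (adjusted p = 0.587). The 4 basement membrane collagens together held 875 ± 21.2 CPM in DMSO and 1197 ± 82.9 CPM in S541 (SD, n = 3), without overlap, a sum that was not tested. Its largest part was COL7A1, which did not pass, at 428 CPM in DMSO and 568 CPM in S541.

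The genes were also read together with the type IV chains outside the set, on the FPKM scale, which divides by gene length and allows levels of different genes to be compared. COL4A3 and COL4A4, partners of COL4A5 in the helix of kidney and lung basement membranes, also lie head to head, with 418 bases between their RefSeq starts on chromosome 2. COL4A3 was at 36.7, 14.8 and 27.4 CPM in DMSO and at 11.0, 9.83 and 8.47 CPM in S541. All treated libraries were below all controls, although the controls spread widely, and COL4A3 fell by 1.43 on the log2 scale (SE 0.306, adjusted p = 0.0314). COL4A4 was at 66.4, 32.0 and 54.8 CPM in DMSO and at 25.9, 19.1 and 19.5 CPM in S541, and fell by 1.25 on the log2 scale (SE 0.26, adjusted p = 0.0284). COL4A6 moved the other way, from 11.6, 14.8 and 14.0 CPM to 24.4, 20.7 and 21.7 CPM, a rise of 0.72 on the log2 scale (SE 0.138, adjusted p = 0.0224). COL4A3 did not pass by limma-voom. These 3 calls were also lost when DMSO replicate 1 or 3 or S541 replicate 1, 2 or 3 was left out alone, with adjusted p of 0.0689 to 0.113 for COL4A3, 0.0665 to 0.114 for COL4A4 and 0.059 to 0.0838 for COL4A6. As a share of the summed FPKM of the 6 chains, COL4A1 went from 18.0 ± 1.25% to 25.3 ± 0.361%, COL4A3 from 4.93% to 1.42% and COL4A4 from 9.62% to 3.13%. The COL4A2 share was 57.7% in DMSO and 62.0% in S541, with overlapping ranges. The ratio of COL4A1 to COL4A2 FPKM was 0.311, 0.305 and 0.323 in DMSO and 0.408, 0.412 and 0.403 in S541. It was higher in each treated library. The ratios given here were chosen after values were seen and are descriptions. An exact permutation test over libraries was run on 7 ratios, not all given here. Its smallest possible p with 3 libraries a group is 0.1, so no ratio could pass 0.05 and no conclusion is drawn from it. The ratio of COL4A3 to COL4A4 was 0.501 ± 0.0462 and 0.455 ± 0.0486 (SD, n = 3), and its ranges overlapped.

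**Figure D2:**
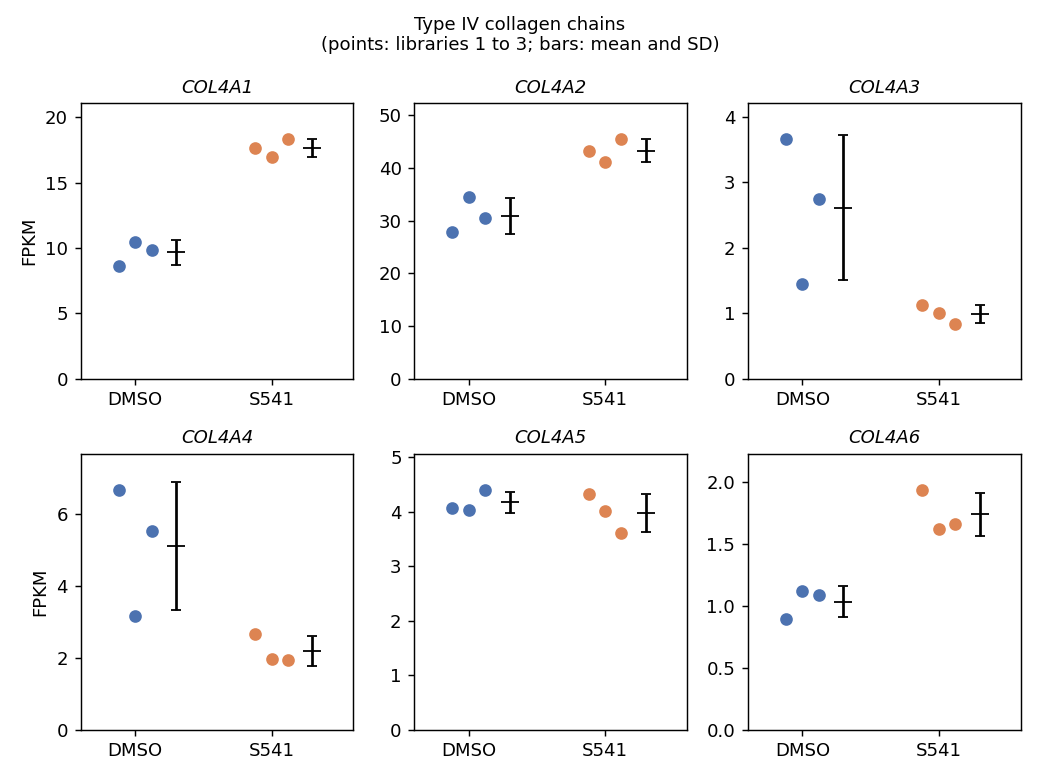
FPKM (y axis) of the 6 type IV collagen chains in each library of DMSO and S541 cells, with points for libraries and bars for the mean and SD. COL4A1 and COL4A2 sit higher in S541, COL4A3 and COL4A4 lower, COL4A6 higher, and COL4A5 did not pass the test.

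Among the fibrillar, microfibrillar and transmembrane collagens, COL6A2 rose and the other 7 tested did not pass. Of the 3 fibrillar collagens 0 passed by edgeR, by DESeq2 or by limma-voom, and 0 had an unadjusted p under 0.05: COL1A1, a chain of type I collagen, had a log2 fold change of -0.36 (adjusted p = 0.267), and COL5A1 and COL5A2, chains of the type V collagen that starts fibrils, had -0.08 and -0.18. COL6A2 (chromosome 21, 46098097 to 46132849), a chain of the beaded filaments of type VI collagen, rested on few reads, with 20, 30 and 29 counts in DMSO and 45, 67 and 85 in S541. At 1.35, 1.80 and 1.75 CPM against 3.16, 4.19 and 5.49 CPM the groups did not overlap, and it rose by 1.38 on the log2 scale (SE 0.261, adjusted p = 0.0213). Without DMSO replicate 1 or 3, or without S541 replicate 2 or 3, the adjusted p was 0.0612 to 0.0724, and without both DMSO replicate 2 and S541 replicate 3 it was 0.0655. Its partner COL6A1 was at 73.3 to 83.6 CPM in DMSO and 81.5 to 86.4 CPM in S541, overlapping, with a log2 fold change of 0.10 (adjusted p = 0.515). COL12A1 and COL16A1, which coat collagen fibrils, had log2 fold changes of -0.05 and 0.10 and did not pass. COL17A1, a hemidesmosome collagen, had 0.13, and COL13A1 was not tested.

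Laminin chains differed by subunit. LAMB1 (chromosome 7, 107923799 to 108003255), the beta 1 chain, was at 200, 199 and 210 CPM in DMSO and at 286, 292 and 268 CPM in S541. All 3 treated libraries lay above all controls, and LAMB1 rose by 0.48 on the log2 scale (SE 0.0758, adjusted p = 0.0122). LAMB2 (chromosome 3, 49121114 to 49133118), the beta 2 chain, was at 62.6, 57.5 and 56.6 CPM in DMSO and at 37.2, 36.4 and 47.8 CPM in S541. The treated libraries were all lower, with S541 replicate 3 nearest to the controls, and LAMB2 fell by 0.54 on the log2 scale (SE 0.126, adjusted p = 0.0398). The ratio of LAMB1 to LAMB2 FPKM, which restates these 2 changes, was 3.86 ± 0.282 in DMSO and 7.95 ± 1.46 in S541 (SD, n = 3). The call on LAMB1 was lost without S541 replicate 1 or 2 (adjusted p = 0.0544 to 0.0574), and that on LAMB2 without any 1 DMSO replicate or without S541 replicate 1 or 2 (adjusted p = 0.0557 to 0.144). LAMA5 and LAMC1, the alpha 5 and gamma 1 chains, had log2 fold changes of 0.10 and 0.14, and LAMA3 and LAMB3, chains of laminin 332, had 0.06 and -0.13. None of these 4 passed. The 6 laminin genes together held 1791 ± 45.3 CPM in DMSO and 1932 ± 75.3 CPM in S541 (SD, n = 3), a sum that was not tested. Its largest part was LAMA5, which did not pass, at 1069 CPM in DMSO and 1144 CPM in S541.

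Among the proteoglycans, SDC4 rose, HSPG2 fell, and AGRN and SDC1 did not pass. SDC4 (chromosome 20, 45325288 to 45348424) encodes syndecan 4, a heparan sulfate proteoglycan of the cell surface, and was at 99.5, 111 and 106 CPM in DMSO and at 151, 152 and 166 CPM in S541. The groups were well apart, and SDC4 rose by 0.57 on the log2 scale (SE 0.0844, adjusted p = 0.00972) and passed in every fit. HSPG2 (chromosome 1, 21822245 to 21937297) encodes perlecan, the large heparan sulfate proteoglycan of basement membranes, and was at 218, 275 and 238 CPM in DMSO and at 173, 161 and 183 CPM in S541. It was lower in every treated library and fell by 0.50 on the log2 scale (SE 0.106, adjusted p = 0.0303), a call lost without DMSO replicate 3 or without S541 replicate 1, 2 or 3 (adjusted p = 0.0625 to 0.117). Exons of LDLRAD2 on the opposite strand cover 11.7% of the HSPG2 exon bases. The use of strand in counting is not given, so reads of the 2 genes over those shared bases cannot be told apart. AGRN, agrin, was at 795 to 886 CPM in DMSO and 688 to 852 CPM in S541, with a log2 fold change of -0.14 (adjusted p = 0.429). SDC1 had -0.07 (adjusted p = 0.843), and the FPKM ratio of SDC4 to SDC1 was 3.12 ± 0.800 in DMSO and 4.65 ± 0.0703 in S541 (SD, n = 3).

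**Figure D3:**
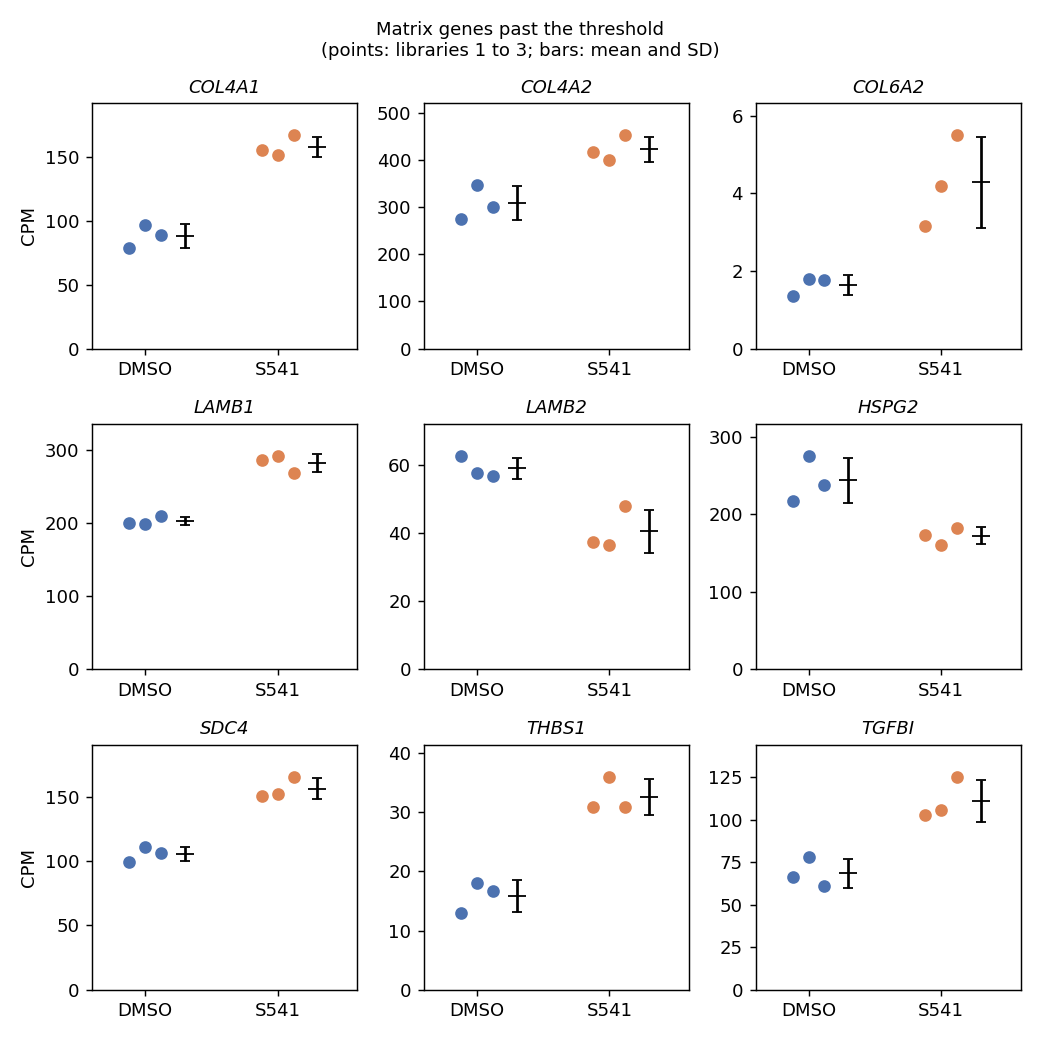
CPM (y axis, from 0) of the 9 matrix genes past the threshold, in each library, with points for libraries and bars for the mean and SD. In all 9 panels the 3 S541 libraries lie to one side of the 3 DMSO libraries, above them in 7 and below them in LAMB2 and HSPG2.

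Of the 9 matricellular genes, 7 were tested and 2 rose. THBS1 (chromosome 15, 39581079 to 39599466) encodes thrombospondin 1, which binds matrix and can activate latent TGF-beta, and was at 12.9, 18.0 and 16.8 CPM in DMSO and at 30.8, 36.1 and 30.8 CPM in S541. Every treated library lay above every control, and THBS1 rose by 1.03 on the log2 scale (SE 0.149, adjusted p = 0.0086) and passed in every fit. It and COL6A2 are the matrix genes that passed with at least a 2-fold change, and opposite-strand exons cover 7.58% of the THBS1 exon bases. In the authors' deposited table THBS1 is listed as up, whereas COL6A2 has a Q-value of 0.00105 but is listed as neither up nor down. TGFBI (chromosome 5, 136028895 to 136063818), a matrix protein induced by TGF-beta, was at 66.0, 77.9 and 61.2 CPM in DMSO and at 103, 106 and 125 CPM in S541. These groups did not overlap, and TGFBI rose by 0.70 on the log2 scale (SE 0.123, adjusted p = 0.0167), a call that did not hold when DMSO replicate 1 or 3, or S541 replicate 2 or 3, was left out (adjusted p = 0.0534 to 0.0656). SPOCK1, a testican proteoglycan, was at 6.06 to 7.14 CPM in DMSO and 9.07 to 10.0 CPM in S541, with a log2 fold change of 0.53 (adjusted p = 0.0586).

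FSTL3 encodes a secreted binding protein of activins, and was at 322, 511 and 373 CPM in DMSO and at 95.6, 228 and 265 CPM in S541. All treated libraries lay below all controls, but S541 replicate 1 was far below the other 2, and its log2 difference of -1.04 (SE 0.346) did not pass (adjusted p = 0.111). It ran from -1.31 to -0.70 as each library was left out. In the authors' deposited table FSTL3 is listed as down, with a p-value of 0.000362 and a Q-value of 0.0137. The within-group SD of its log2 CPM was 0.609, at the 97.4th percentile of all tested genes. FSTL1, THBS3 and SPARC had log2 fold changes of 0.04, 0.03 and 0.82 and did not pass (adjusted p = 0.782, 0.902 and 0.293), with SPARC at under 1 CPM throughout. THBS2 and TNC, tenascin C, were not tested. Opposite-strand exons cover 25.4% of the THBS3 exon bases.

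The 2 fibrillins, which form microfibrils, and the 3 lysyl oxidases did not pass by edgeR. At an unadjusted p under 0.05, FBN2, LOX and LOXL1 passed, and of the 5 genes LOX passed by DESeq2 and 0 by limma-voom. FBN2 was at 203 to 243 CPM in DMSO and 272 to 278 CPM in S541, without overlap, with a log2 fold change of 0.27 (adjusted p = 0.113). FBN1 was at -0.15 on that scale (adjusted p = 0.356). Its ranges almost touched, at 121.4 to 134 CPM in DMSO and 105.7 to 121.3 CPM in S541. LOX was at 14.9, 8.94 and 12.8 CPM in DMSO and at 23.2, 14.0 and 28.3 CPM in S541. The groups overlapped, and the log2 fold change of 0.84 (SE 0.281) gave an adjusted p of 0.111 by edgeR and 0.0245 by DESeq2's Wald test. LOXL1 had -0.43 (adjusted p = 0.141) and LOXL2 0.20 (adjusted p = 0.564).

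Of the 9 matrix proteases 4 were tested, and 0 passed by edgeR, DESeq2 or limma-voom, with MMP2 alone at an unadjusted p under 0.05. MMP2, a gelatinase, had -0.47 on the log2 scale (SE 0.176, adjusted p = 0.147) and did not overlap between groups, at 10.5 to 14.0 CPM in DMSO and 7.70 to 10.1 CPM in S541. MMP14, the membrane-type enzyme that activates MMP2, had -0.08 (adjusted p = 0.742), ADAMTS1, which cuts proteoglycans, 0.10 (adjusted p = 0.631), and MMP9, the other gelatinase, -0.23 (adjusted p = 0.754). Opposite-strand exons cover 18.4% of the MMP9 exon bases. MMP3, MMP10 and ADAM19 had no count in any library, where 3 counts would be 0.176 to 0.215 CPM in a library and 0.0319 CPM over all 93959491 counts. MMP1, an interstitial collagenase, had 1, 0 and 0 counts in DMSO and 5, 4 and 0 in S541, and MMP13, another collagenase, had 0, 0 and 4 counts and 2, 4 and 1. MMP1, MMP3, MMP10 and MMP13 lie in 1 cluster on chromosome 11 (hg38, 102520508 to 102955734), in which MMP8, MMP20 and MMP27 had no count and MMP12 had 1. MMP7, at the edge of the cluster, had 6, 23 and 3 counts in DMSO and 12, 26 and 10 in S541 and did not pass. The other untested genes also had few counts, with COL13A1 at 0, 3 and 3 in DMSO and 7, 12 and 8 in S541, TNC at 0, 2 and 4 and 8, 4 and 5, and THBS2 at 6, 2 and 0 and 3, 3 and 0. In the authors' deposited table COL13A1 has a Q-value of 0.0478.

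Of the 3 TIMP genes, which inhibit these proteases, 0 passed by edgeR, DESeq2 or limma-voom, and 0 had an unadjusted p under 0.05. TIMP1 was the most abundant of the tested matrix genes per length, at 90.5 ± 8.30 FPKM in DMSO (SD, n = 3), and had a log2 fold change of 0.11 (adjusted p = 0.515). TIMP2 was at 386, 458 and 94.0 CPM in DMSO and at 121, 366 and 404 CPM in S541. DMSO replicate 3 and S541 replicate 1 were low and the other 4 libraries high, so the groups overlapped, and the log2 fold change of -0.07 (SE 0.59) did not pass (adjusted p = 0.956). Leaving out each library in turn moved it from -0.50 to 0.31. The within-group SD of its log2 CPM was 1.12, at the 99.5th percentile, and 77 of 15847 tested genes had as large an SD or larger. Exons of other genes cover 10.0% of the TIMP2 exon bases. CEP295NL on the same strand covers 3.52% of the TIMP2 exon bases, and AC022966.1 on the opposite strand 6.52%. TIMP3 was at 110 to 172 CPM in DMSO and 103 to 117 CPM in S541, with a log2 fold change of -0.35 (adjusted p = 0.224), and passed without DMSO replicate 2 (adjusted p = 0.0339).

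**Figure D4:**
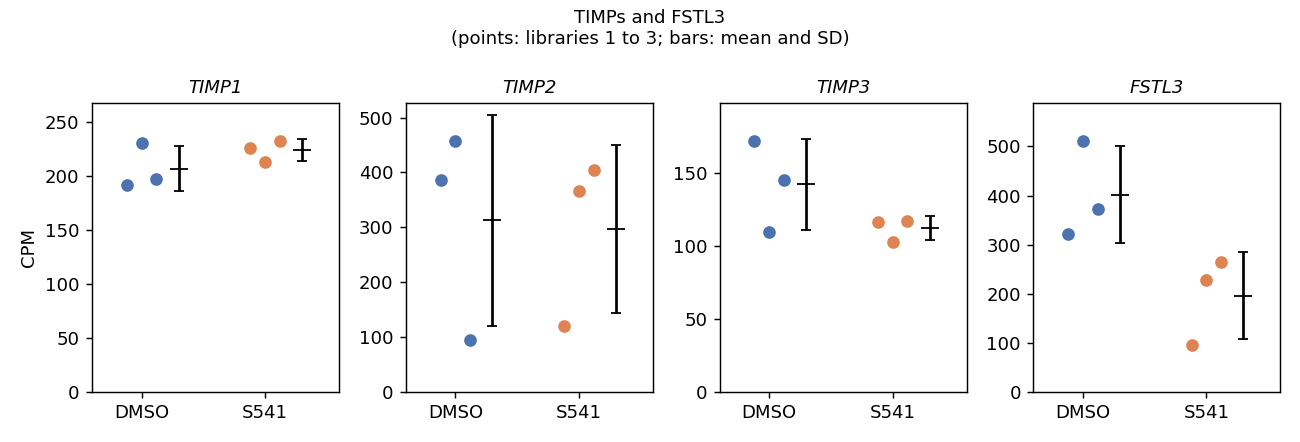
CPM (y axis, from 0) of TIMP1, TIMP2, TIMP3 and FSTL3 in each library, with points for libraries and bars for the mean and SD. TIMP2 has 1 low library in each group, at 94.0 CPM in DMSO and 121 CPM in S541, and FSTL3 has 1 low S541 library, at 95.6 CPM.

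By length-corrected level, the order of the tested genes in DMSO began with TIMP1 at 90.5 FPKM, FSTL3 at 63.1, LAMA5 at 59.2, AGRN at 55.0 and SDC4 at 40.0 FPKM. Of the 40 neighbouring pairs in this order, the library ranges of 11 were apart and those of 29 overlapped, so much of the order is within the spread. SDC4 stood at 60.3 FPKM in S541.

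**Figure D5:**
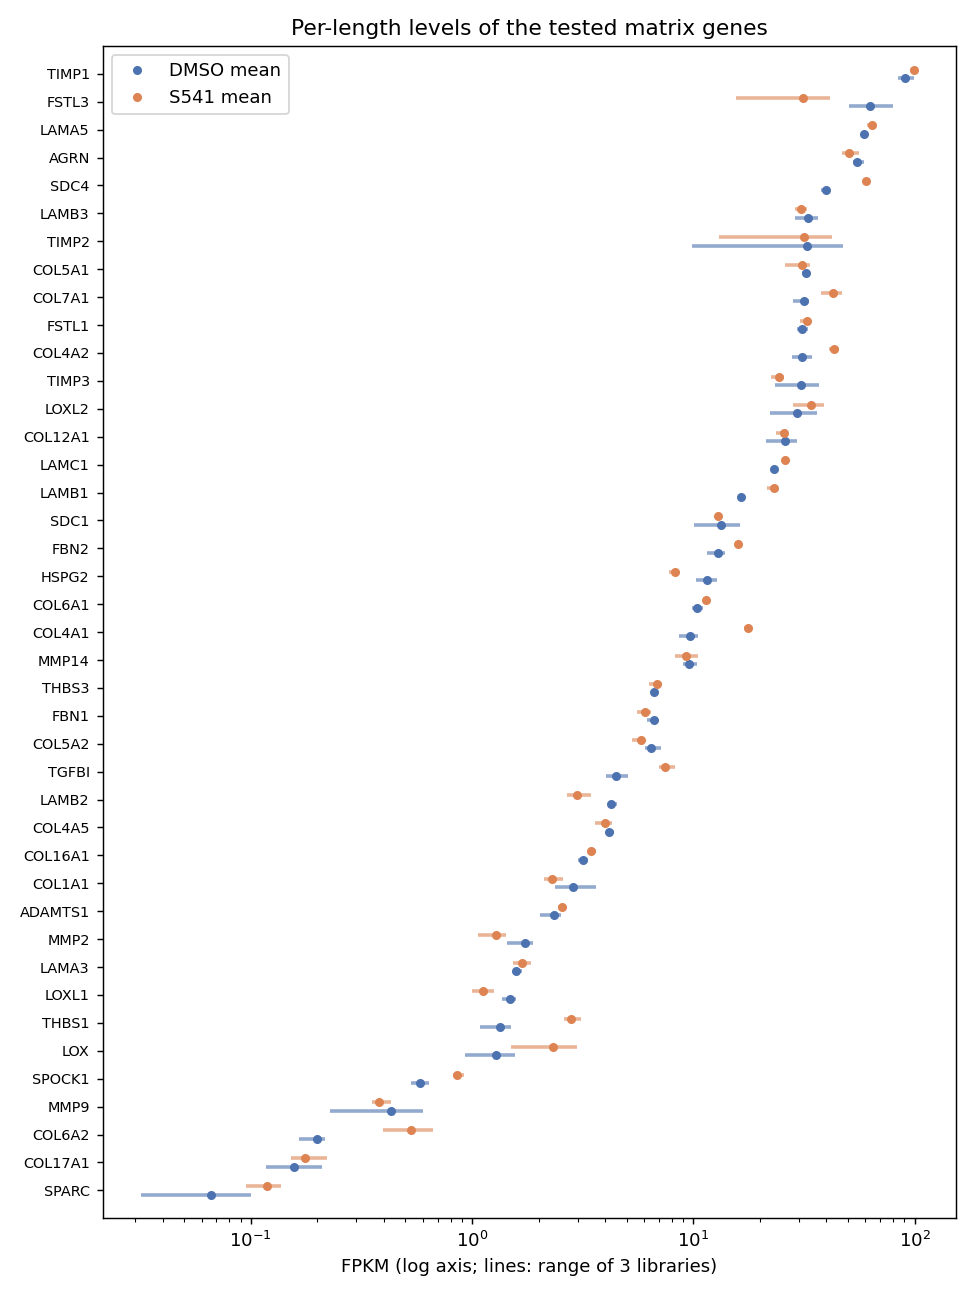
FPKM (x axis, log scale) of the 41 tested matrix genes, ordered by the DMSO mean, with dots for group means and lines for the range of 3 libraries. TIMP1, at 90.5 FPKM, stands highest in DMSO, and the TIMP2 and FSTL3 lines are long.

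Of 179 other matrix genes, listed by class, 104 were tested, 15 rose and 13 fell, which is 26.9% of those tested beside the 8.19% of all tested genes. Their median log2 fold change was 0.09. These lists too were chosen with earlier results of these data known, so the share is a description. Among 7 other basement membrane glycoproteins tested, 3 rose, among them LAMA4, the laminin alpha 4 chain, by 1.34 on the log2 scale (adjusted p = 0.00477) and TINAGL1 by 0.66 (adjusted p = 0.0173). Of 14 other collagens tested, 1 rose and 3 fell. They are the type IV chains COL4A6, COL4A3 and COL4A4 given above and COL9A3, a cartilage collagen chain, which fell and was at 149 ± 3.04 CPM in DMSO and 94.5 ± 5.41 CPM in S541 (SD, n = 3; adjusted p = 0.00536). Of 28 other matrix glycoproteins tested, 3 rose and 5 fell, among them FST, follistatin, an activin binder like FSTL3, up by 1.59 (adjusted p = 0.00435), ECM1 up by 1.02 (adjusted p = 0.00758), EMILIN2 up by 1.67 (adjusted p = 0.0318) and MFAP5, a microfibril protein, with a log2 fold change of -1.04 (adjusted p = 0.0055). FN1, fibronectin, a gene named after values were seen, had 0.06 (adjusted p = 0.788). TINAGL1 lost its call without DMSO replicate 1 or 3 or S541 replicate 1 (adjusted p = 0.0523 to 0.0707), and EMILIN2 without any 1 of the 6 libraries (0.064 to 0.0995).

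Genes of collagen processing and cross-linking included both directions, with 4 up and 3 down of 19 tested. PCOLCE2, an enhancer of procollagen processing, rose by 1.12 on the log2 scale (adjusted p = 0.00525), P3H2, a prolyl 3-hydroxylase of type IV collagen, by 0.97 (adjusted p = 0.00435) and TGM2, a transglutaminase, by 0.61 (adjusted p = 0.0202), while TLL1 had -0.59 (adjusted p = 0.0282). Of 27 other proteases and inhibitors, 2 rose and 1 fell: CTSL, cathepsin L, by 0.89 (adjusted p = 0.00608), ADAMTS16 by 0.50 (adjusted p = 0.0456), and ADAMTS10 with -1.18 (adjusted p = 0.0164). Of 9 other proteoglycans, SRGN, serglycin, rose by 0.75 (adjusted p = 0.00771), CD44, a hyaluronan receptor, by 0.48 (adjusted p = 0.0408), and TGFBR3, betaglycan, had -0.53 (adjusted p = 0.0206). Of the 28 calls, 10 held when each library was left out in turn. TGM2 did not pass when DMSO or S541 replicate 1 or 3 was left out (0.0602 to 0.0781), TLL1 and TGFBR3 without DMSO replicate 1 or 3 or any 1 S541 replicate (0.0773 to 0.101 and 0.0578 to 0.0923), ADAMTS10 without DMSO replicate 3 or any 1 S541 replicate (0.052 to 0.076), and ADAMTS16 and CD44 without any 1 of the 6 libraries (0.0797 to 0.141 and 0.0525 to 0.129).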

How the data were processed

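RNA-seq was made from total RNA of 6 A549 libraries. The authors' deposited table of all genes gives whole-number counts per gene, used here as deposited, and FPKM, per the file headers. The authors' deposited comparison table gives log2 fold changes, p-values and Q-values, printed only where named. The aligner, counting tool and strand setting were not given in the sources used here. Per the submitters' processing notes, hg38 was the build and edgeR the tool. Here edgeR 4.0.16 in R 4.3.3 fitted the counts (TMM scaling, filterByExpr, no term beyond group) by the quasi-likelihood test, 2-sided, with Benjamini-Hochberg adjustment over 15847 genes. CPM use the TMM-scaled totals and fold changes are S541 over DMSO. Rose and fell mean an adjusted p under 0.05. The members and lists were chosen with earlier results of these data known. All members may be named. Of each other list, the text names by size of change up to 4 genes that passed and reached 1 CPM in either group, or, where 0 passed, the 2 with the highest level, and genes of the MMP cluster may be named. A gene that this rule names is not reported here. GENCODE 29 gave exon overlaps. Floors cover counting error only. The fit was tested on simulated counts, where it recovered 18.2% of 66 1.5-fold, 68.7% of 67 2-fold and 95.4% of 65 4-fold changes. It made 13 false calls among 15612 genes tested. A gene that did not pass may therefore still differ. Far fewer genes were changed there than the 1298 called in the data, which makes the adjustment stricter, so these shares need not hold for the data. Alternatives were DESeq2 1.42.0, limma-voom (limma 3.58.1), other scaling and filters, glmTreat at 1.2-fold, a replicate block and leaving out libraries.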

Additional observations from a re-analysis of the deposited data

How the results depend on the processing

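All 9 called matrix genes kept their sign in the 15 alternatives, and COL4A1, SDC4 and THBS1 passed in each; no called value changed sign. With no filter on low counts, where COL4A2, LAMB2 and HSPG2 lost their calls, 753 genes passed (373 up, 380 down) and 6 matrix genes rose and 0 fell. With the test against a 1.2-fold change (glmTreat), which COL4A2, LAMB1, LAMB2, HSPG2 and TGFBI did not pass, 4 matrix genes passed, 4 up and 0 down. With the replicate number as a block, 392 genes passed (200 up, 192 down). These held 4 matrix genes, 4 up and 0 down, and 13 other matrix genes, 8 up and 5 down. Residual correlations were 0.0994, -0.12 and -0.108 for same-numbered libraries and -0.168 to 0.239 for differently numbered ones. Residuals were centred within groups of 3 libraries, so these values cannot show whether a shared number marks a shared culture or batch. The labels do not say. Leaving out each library in turn gave 349 to 1330 genes (190 to 646 up, 159 to 684 down), 3 to 9 matrix genes (3 to 7 up, 0 to 2 down) and 11 to 28 other matrix genes (7 to 14 up, 3 to 14 down). Leaving out DMSO replicate 2 and S541 replicate 3 together, an alternative chosen after seeing the data, gave 1020 genes and 8 matrix genes, 6 up and 2 down. DESeq2's Wald test called 11 matrix genes, 9 up and 2 down. The causes were not tested. The 8 matrix genes under the filter on low counts had at most 12 counts in a library, and without the filter 46 matrix genes were tested.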
